A study of Rattus norvegicus with 12 samples.

Results

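The cytosolic heat shock proteins examined here are 10 genes of the 34034 gene symbols counted in rat INS-1E cells. They were taken by symbol, and are the HSP70 chaperones Hspa1a, Hspa1b and Hspa8, the HSP110 chaperones Hspa4 and Hsph1, the HSP90 chaperone Hsp90aa1, the small heat shock protein Hspb1, the co-chaperones Dnajb1 and Bag3, and the transcription factor Hsf1. INS-1E is an established insulin-secreting line from a rat insulinoma, here labelled as wild type, so every library comes from 1 line of tumour origin. Polyadenylated RNA was sequenced from 4 groups of 3 libraries. Untreated cells received no cytokine. IL-1βlow cells received 10 pg/ml IL-1β during 72 h, with fresh cytokine added daily. CYT cells received the cytotoxic mixture, 100 pg/ml IL-1β together with 5 ng/ml IFN-γ, during 16 h. IL-1βlow + CYT cells received the low dose first and, after a change of medium, the same mixture. As the study describes its design, primed cells either met the mixture or went without it, and were taken 16 h later. The sample labels do not say whether cells given only the low dose also had the change of medium and this interval. The comparisons ask how the cytotoxic mixture and the low-dose priming, alone and in sequence, moved the chaperone transcripts.

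Heat shock proteins hold unfolded proteins, help them fold and pass those that fail to degradation. HSP70 works in a cycle in which a J-domain protein such as Dnajb1 delivers the client, and nucleotide exchange factors such as the HSP110 proteins and Bag3 release it. HSP90 acts later on kinases and receptors, and the small heat shock proteins keep unfolded clients soluble. Under proteotoxic stress the cytosolic chaperones are taken up by unfolded proteins, Hsf1 is freed, forms trimers and drives their genes through heat shock elements. In β-cells, HSP70 is known as a protective factor against cytokine toxicity.

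Libraries held 15812640 to 20246806 counts, with a median of 17461925.5. The ribosomal RNA gene Rn45s took 6.89 to 11.1% of them. Levels are given as CPM, counts scaled to the size of the library, after TMM normalisation. Low genes were left out (CPM had to exceed 1 in 2 or more libraries), and edgeR's quasi-likelihood test over all 12 libraries was run on the other 14324. A gene passed with a Benjamini-Hochberg adjusted p under 0.01. Of the 10 members 9 were tested. The labels call the libraries biological replicates without saying how the cultures were separated, so the p-values measure the spread between these libraries. Insulin and the other β-cell markers were present in every library, with all 10 tested. Their summed level was 42400 to 49200 CPM in untreated, 37800 to 44300 CPM in IL-1βlow, 13800 to 14700 CPM in CYT and 19800 to 25200 CPM in IL-1βlow + CYT libraries. Ins1, Chga and Ins2 made up most of this sum, and not every marker followed it. Slc2a2, the glucose transporter GLUT2, had mean levels of 434, 352, 397 and 596 CPM in these groups, and Neurod1, a β-cell transcription factor, 167, 167, 110 and 181 CPM. Gcg, the 1 tested marker of 3 for alpha cells, moved alike, with mean levels of 265, 210, 37.3 and 101 CPM. The fibroblast list, nearly all from Pdgfra, was also lower with CYT, with sums of 12.1 to 16.2 CPM in untreated, 12.8 to 14.9 CPM in IL-1βlow, 6 to 7.11 CPM in CYT and 7.96 to 10.6 CPM in IL-1βlow + CYT libraries, while Col1a1 and Col3a1 had at most 13 and 3 counts in any library. The ductal list reached 2.54 CPM at most. Markers of immune, acinar and endothelial cells summed to at most 1.25 CPM per list and library, and Ptprc, Prss1 and Cpa1 had no count. The part of these marker shifts in the results below was not tested. In bulk RNA, fewer cells of a kind and less RNA per cell cannot be told apart. Replicate 3 of all 3 treated groups held the highest level of Hspa4, Hsph1 and Hsp90aa1, and the values of Hspa4 and Hsp90aa1 are therefore given with and without replicate 3 of every group.

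The cytotoxic mixture moved 4 of the 9 tested members past the test, where 49.7% of all genes passed, and all 4 by less than 2-fold. Hsf1 and Hspa8 were higher in CYT than in untreated cells, by 1.73-fold and 1.51-fold. Bag3 and Hsp90aa1 were lower, by 1.51-fold and 1.75-fold, and the stress-inducible pair Hspa1a and Hspa1b, Dnajb1, Hspa4 and Hsph1 did not pass. The call of Hsp90aa1 lay at the threshold and was lost in every fit that left out 1 library of these groups. Low-dose IL-1β alone moved none of the 9 members past the test, where 0.503% of all genes passed. When it preceded the mixture, Hsf1 and Hspa8 were lower than with the mixture alone, a comparison that 36.3% of all genes passed. Against untreated cells, a comparison that 13.8% of all genes passed, Bag3 was lower in these primed and challenged cells. This call was narrowly lost without untreated replicate 2 or 3.

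**Figure D1:**
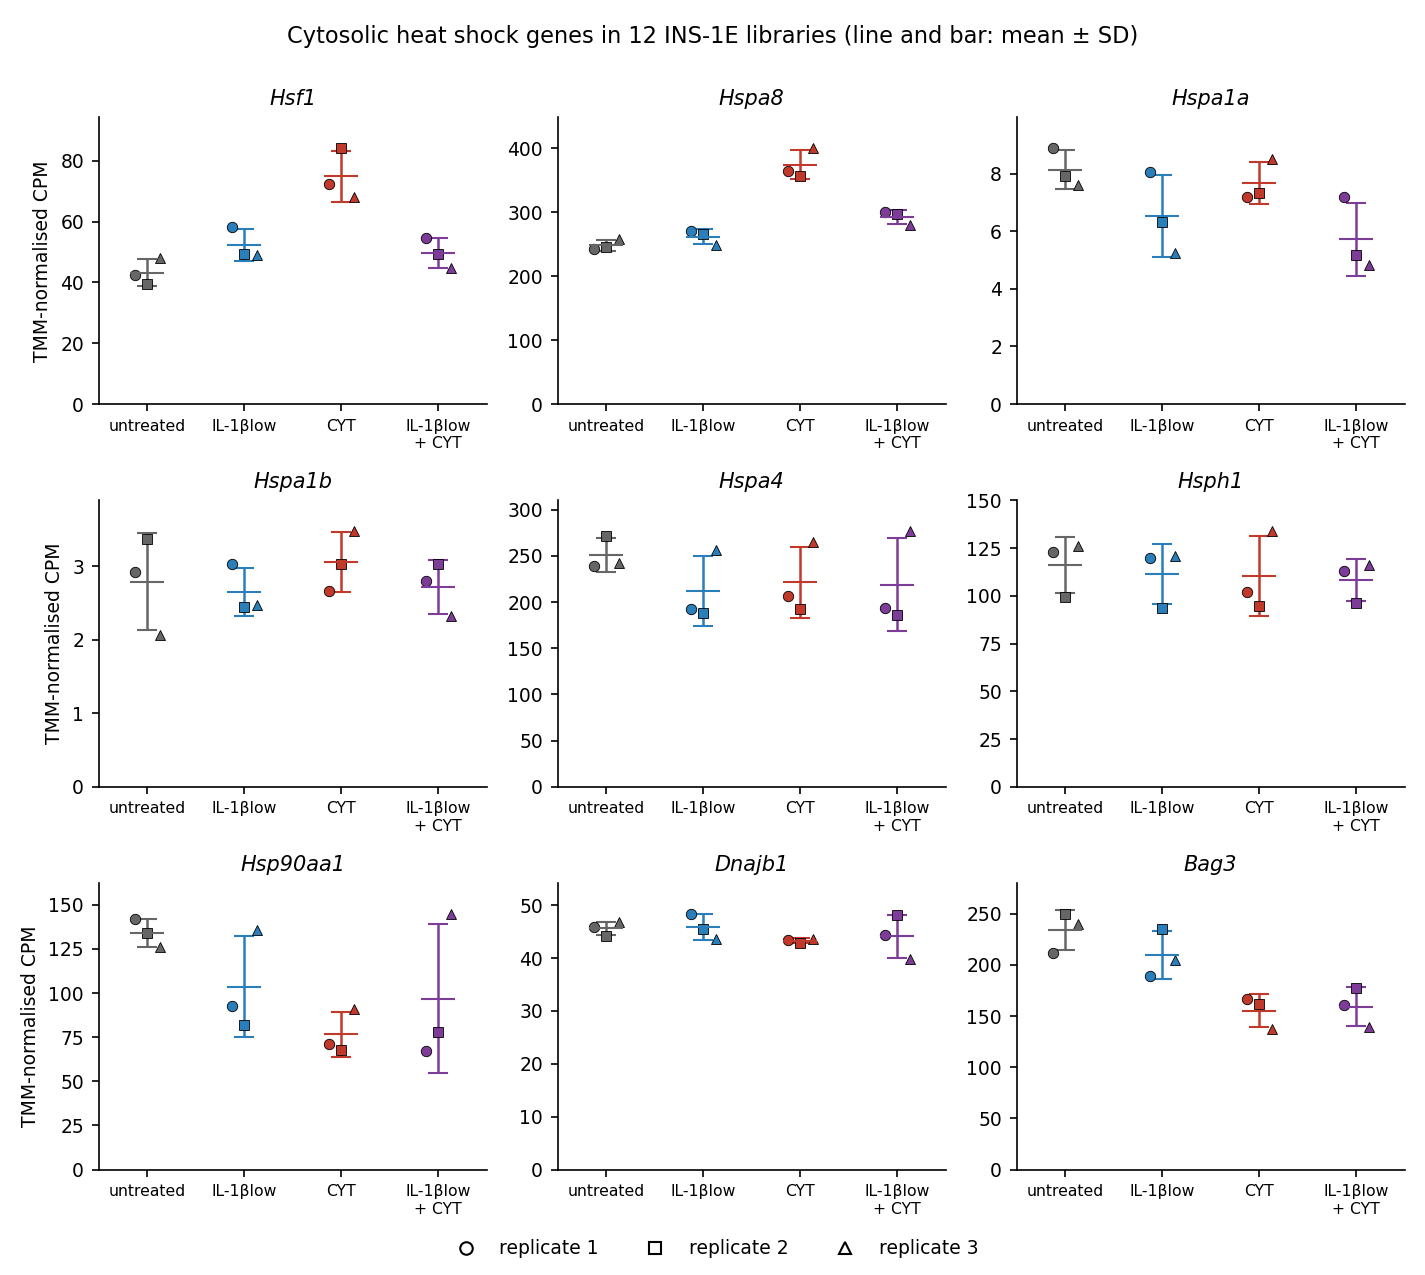
TMM-normalised CPM (linear axis from 0) of the 9 tested members in each of the 12 INS-1E libraries, by group, with symbols for the replicate numbers and a line and bar for the mean ± SD of 3 libraries. Hsf1 at 68.2 to 84.1 CPM and Hspa8 at 357 to 400 CPM lie above every other group in CYT libraries, and the replicate 3 triangles stand above the others for Hsp90aa1 and Hspa4 in the treated groups.

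Of all 14324 genes tested, 49.7% passed between CYT and untreated cells, and 4 of 9 members did. Of the members 2 were higher and 2 lower, and of all genes 25.2% were higher and 24.5% lower. None of the 4 reached the study's minimum of a 2-fold change, which 21.6% of all genes passed. The median absolute log2 fold change was 0.18 for the members and 0.51 for all genes, and the signed medians were -0.07 and -0.04. The 3 CYT and 3 untreated levels did not overlap for 5 of the 9 members and for 69.3% of all genes.

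Hsf1, the transcription factor that drives the heat shock genes, had the strongest rise among the members. Its untreated libraries held 42.3, 39.4 and 48.0 CPM and the IL-1βlow libraries 58.3, 49.2 and 49.1 CPM. The CYT libraries held 72.2, 84.1 and 68.2 CPM, and the IL-1βlow + CYT libraries 54.7, 49.4 and 44.8 CPM. All 3 CYT libraries were therefore above all 9 others, and the group means ran from 43.2 ± 4.37 CPM (SD, n = 3) in untreated through 49.7 ± 4.96 in IL-1βlow + CYT and 52.2 ± 5.31 in IL-1βlow to 74.8 ± 8.23 CPM in CYT cells. CYT against untreated cells gave 0.79 on the log2 scale (adjusted p = 3.4e-05, quasi-likelihood test, standard error 0.11). IL-1βlow + CYT cells were 0.59 lower than CYT cells on the log2 scale (95% interval -0.83 to -0.35, adjusted p = 6.2e-04). They did not pass against untreated cells, with a log2 fold change of 0.20 (95% interval -0.04 to 0.45, adjusted p = 0.24), nor against IL-1βlow cells, at -0.07 (adjusted p = 0.79). IL-1βlow and untreated libraries did not overlap, but their log2 difference of 0.27 (95% interval 0.03 to 0.52) missed the threshold, with an unadjusted p of 0.031 and an adjusted p of 0.31 in the quasi-likelihood test.

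The response of Hsf1 to the mixture differed between primed and unprimed cells. The interaction, which is the log2 change from IL-1βlow to IL-1βlow + CYT minus that from untreated to CYT, was -0.86 for Hsf1 (standard error 0.16, adjusted p = 9.4e-04, quasi-likelihood test). Across all genes 22.6% passed this test, 12.5% with a negative value, and 10.7% also reached the 2-fold minimum. Of the 9 members Hsf1 and Hspa8 passed, both with a negative value and neither at that minimum. Hsp90aa1 had a positive interaction of 0.71 that did not pass (adjusted p = 0.12). It passed without replicate 3 of every group (0.75, adjusted p = 0.0013, where 24% of all genes passed). That setting was chosen after Hsp90aa1 was seen to stand apart in replicate 3, so this call is no separate evidence. With no filter on low counts the interaction of Hsp90aa1 also passed (0.66, adjusted p = 2.8e-04), in a fit whose share of all genes was not taken.

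Heat shock elements are inverted repeats of a short unit, GAA or its reverse complement TTC, with NN between the units. RefSeq windows of the rat assembly GRCr8, from 250 bases before to 50 after each gene's start, were searched on both strands for 3 units (TTCNNGAANNTTC) and for the 2-unit forms TTCNNGAA and GAANNTTC, which every 3-unit match also contains. Windows were held for 7 of the 10 members, not for Hspa1b, Hsp90aa1 and Hsf1. The 3-unit form is rare, in 267 of 33469 windows (0.798%), while TTCNNGAA is in 8.77% and GAANNTTC in 8.59%. It is found in Hspa8, 2 times, and in Hsph1, 1 time. The sequences of both are shown because Hspa8 rose with the mixture and Hsph1 did not pass, and both carry it. The 250 bases upstream of the start are printed 5′ to 3′ on the gene's strand, with every match in capitals. That of Hspa8 is chr8:50080264-50080513 (GRCr8, + strand), with matches at -213 to -201 and -55 to -43 from the start, and that of Hsph1 is chr12:10427118-10427367 (+ strand), with the 3-unit match at -36 to -24 and a 2-unit match at -105 to -98.
Hspa8: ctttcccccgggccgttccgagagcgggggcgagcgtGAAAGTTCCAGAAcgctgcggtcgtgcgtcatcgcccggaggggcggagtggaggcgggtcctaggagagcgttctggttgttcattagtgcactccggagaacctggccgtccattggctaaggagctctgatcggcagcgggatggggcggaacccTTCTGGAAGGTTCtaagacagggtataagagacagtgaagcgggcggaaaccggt
Hsph1: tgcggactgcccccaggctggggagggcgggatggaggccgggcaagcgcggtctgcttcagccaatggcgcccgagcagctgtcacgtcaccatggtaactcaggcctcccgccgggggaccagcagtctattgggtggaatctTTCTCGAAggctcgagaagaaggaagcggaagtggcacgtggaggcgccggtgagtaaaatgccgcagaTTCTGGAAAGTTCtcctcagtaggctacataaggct

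Among the other windows, 2-unit matches alone were found in Bag3, which fell with the mixture, in Dnajb1, which did not pass, and in Hspb1, which was nearly without counts. Hspa1a and Hspa4 held no match, which says merely that these letters are not in these windows. The stretches around the matches, again with the matches in capitals, lie on chromosome 1 (+ strand, -152 to -105 from the start) for Bag3, on chromosome 19 (- strand, -31 to 30) for Dnajb1 and on chromosome 12 (- strand, -149 to -82) for Hspb1.
Bag3: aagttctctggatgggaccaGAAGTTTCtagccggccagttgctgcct
Dnajb1: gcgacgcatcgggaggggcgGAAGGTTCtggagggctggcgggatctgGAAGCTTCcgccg
Hspb1: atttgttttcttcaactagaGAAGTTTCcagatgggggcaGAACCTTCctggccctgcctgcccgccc

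Hspa8 encodes HSC70, the HSP70 chaperone that cells make without stress and the one used in chaperone-mediated autophagy and in uncoating clathrin vesicles. Its untreated libraries held 242, 245 and 258 CPM, and the IL-1βlow libraries 271, 266 and 248 CPM. In CYT libraries it reached 365, 357 and 400 CPM, and in IL-1βlow + CYT libraries 300, 297 and 280 CPM. CYT libraries thus lay above all others, and IL-1βlow + CYT libraries lay above every untreated and IL-1βlow library without overlap. CYT raised Hspa8 by 50.6%, or 0.59 on the log2 scale with a standard error of 0.07 (adjusted p = 9.5e-06, quasi-likelihood test). The primed and challenged cells stood 0.36 below CYT cells on the log2 scale (95% interval -0.52 to -0.20, adjusted p = 0.0012). Against untreated cells the log2 fold change was 0.23 (adjusted p = 0.036) and against IL-1βlow cells 0.16 (adjusted p = 0.21), neither of which passed, and IL-1βlow against untreated cells gave 0.07 (adjusted p = 0.65). The interaction of Hspa8 was -0.43 (standard error 0.11, adjusted p = 0.0056). It lost its call in 5 of 12 fits that each left out 1 library. These left out untreated replicate 1 or 2, IL-1βlow replicate 1, CYT replicate 3 or IL-1βlow + CYT replicate 3. The interaction there was of similar size, at -0.46 to -0.40, and the adjusted p reached 0.013 in the quasi-likelihood test. The difference between IL-1βlow + CYT and CYT cells was -0.26 without replicate 3 of every group and then just missed the threshold (adjusted p = 0.01), which 33.9% of all genes passed in that fit. In the GRCr8 annotation Hspa8 overlaps 2 snoRNA genes.

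Hspa1a and Hspa1b are the near-identical, classically heat-inducible HSP70 genes. Hspa1a stood at 8.88, 7.93 and 7.60 CPM in untreated libraries and at 7.17, 7.34 and 8.49 CPM in CYT libraries, and these ranges overlapped. In IL-1βlow libraries it was 8.05, 6.32 and 5.24 CPM. The 3 IL-1βlow + CYT libraries, at 7.17, 5.17 and 4.81 CPM, were all below the lowest untreated library. Its log2 fold change in CYT against untreated cells was -0.09 (95% interval -0.48 to 0.31, adjusted p = 0.71, quasi-likelihood test). In IL-1βlow + CYT against untreated cells it was -0.51 (adjusted p = 0.07) and against CYT cells -0.43 (adjusted p = 0.074), and neither passed. Over the alternatives tried the first ran from -0.72 to -0.41 and the second from -0.65 to -0.23. Hspa1b was lower still in counts, at 34 to 68 per library, with 2.92, 3.37 and 2.07 CPM in untreated and 2.66, 3.03 and 3.48 CPM in CYT libraries. IL-1βlow libraries held 3.03, 2.45 and 2.47 CPM and IL-1βlow + CYT libraries 2.80, 3.03 and 2.32 CPM, so all 4 groups overlapped. Hspa1b did not pass in any comparison, and its log2 fold change with CYT was 0.13 (95% interval -0.35 to 0.61, adjusted p = 0.63). Because reads of the 2 copies can be split between them, their counts were also summed. The sum was 11.8, 11.3 and 9.67 CPM in untreated and 9.83, 10.4 and 12 CPM in CYT libraries, a log2 fold change of -0.03 whose 95% interval from -0.38 to 0.33 leaves out a 2-fold change in either direction. In RefSeq's GRCr8 annotation Hspa1a overlaps Hspa1l, which had 87 counts in all 12 libraries together.

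The balance between inducible and constitutive HSP70 counts can be read without any scaling between libraries. For each Hspa8 count there were 0.0441 ± 0.00591 counts of Hspa1a and Hspa1b (SD, n = 3) in untreated cells, 0.0350 ± 0.00517 in IL-1βlow cells, 0.0286 ± 0.00152 in CYT cells and 0.0288 ± 0.00399 in IL-1βlow + CYT cells. The ratio is not corrected for transcript length and describes only the shift between groups, which was not tested.

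Hspa4 and Hsph1 belong to the HSP110 group, which exchanges the nucleotide of HSP70. Hsph1, at 123, 99.6 and 126 CPM in untreated and 102, 94.8 and 134 CPM in CYT libraries, had log2 fold changes between -0.10 and 0.03 over the 5 comparisons and the interaction and passed none. IL-1βlow libraries held 120, 93.4 and 121 CPM and IL-1βlow + CYT libraries 113, 96.0 and 116 CPM. Replicate 2 was its lowest library in every group, and the groups overlapped throughout. Hspa4 stood at 239, 272 and 242 CPM in untreated cells. In IL-1βlow libraries it was 192, 188 and 256 CPM, in CYT libraries 207, 192 and 265 CPM, and in IL-1βlow + CYT libraries 194, 186 and 277 CPM. Replicates 1 and 2 of every treated group were below all untreated libraries, and replicate 3 was not. With all libraries no comparison of Hspa4 passed (CYT against untreated cells -0.18, 95% interval -0.53 to 0.17, adjusted p = 0.35, quasi-likelihood test). Without replicate 3 of every group, a setting chosen after seeing the data, its log2 fold change against untreated cells was -0.43 in IL-1βlow (adjusted p = 0.0068), -0.37 in CYT (adjusted p = 0.0023) and -0.43 in IL-1βlow + CYT cells (adjusted p = 0.0023). In that fit 5.83% of all genes passed in IL-1βlow, 51.2% in CYT and 22.3% in IL-1βlow + CYT against untreated cells. Hspa4 overlaps Rps2-ps16, a ribosomal protein pseudogene, in the GRCr8 annotation.

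Hsp90aa1 encodes the stress-inducible of the cytosolic HSP90 proteins, and its level was uneven between libraries of the same treated group. The untreated libraries held 142, 134 and 126 CPM and the CYT libraries 71.1, 67.6 and 91.0 CPM, without overlap. IL-1βlow libraries held 92.7, 81.8 and 136 CPM, and IL-1βlow + CYT libraries 67.4, 78.2 and 145 CPM. In both of these groups replicates 1 and 2 lay below, and replicate 3 within or above, the untreated range. Hsp90aa1 fell by 42.9% with CYT, at a log2 fold change of -0.81 (95% interval -1.33 to -0.29, adjusted p = 0.0097, quasi-likelihood test). This call lies at the threshold. It was lost in each of the 6 fits that left out 1 library of these groups, at log2 fold changes of -0.92 to -0.72 with adjusted p up to 0.047, in DESeq2 (adjusted p = 0.023) and with at least 10 counts in every library (adjusted p = 0.012). It was kept with RLE size factors (adjusted p = 0.0098), exactTest (adjusted p = 0.0022), the replicate block (adjusted p = 3.2e-04), the fit of these 2 groups alone (adjusted p = 6.7e-05) and no filter (adjusted p = 3.3e-10). With no filter Hsp90aa1 also passed in IL-1βlow + CYT against untreated cells (-0.44, adjusted p = 0.001), although those libraries overlapped. The share of all genes was not taken for that fit, so its small p-values are not read as stronger support. With the filter and all libraries the other comparisons did not pass. Among them were -0.37 in IL-1βlow (adjusted p = 0.48) and -0.47 in IL-1βlow + CYT (adjusted p = 0.19) against untreated cells, and 0.34 in IL-1βlow + CYT against CYT cells (adjusted p = 0.26). Without replicate 3 of every group, Hsp90aa1 was lower than in untreated cells by 0.66 in IL-1βlow (log2 fold change -0.66, adjusted p = 0.0014), by 1.01 in CYT (log2 fold change -1.01, adjusted p = 3.3e-06) and by 0.92 in IL-1βlow + CYT cells (log2 fold change -0.92, adjusted p = 2.2e-05). Of all genes 5.83%, 51.2% and 22.3% passed in these comparisons. The setting was chosen because Hsp90aa1 and Hspa4 stood apart in replicate 3, so these calls are no separate evidence. In the GRCr8 annotation it overlaps the lncRNA LOC102549239.

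Hsp90ab1, the constitutive cytosolic HSP90 gene and a partner chosen for comparison after its values were seen, went the other way. Its log2 fold change in CYT against untreated cells was 0.30 (adjusted p = 0.0046, quasi-likelihood test). The Hsp90aa1 counts per Hsp90ab1 count were 0.0723, 0.0739 and 0.0627 in untreated and 0.0304, 0.0294 and 0.0366 in CYT libraries, so the ratio was lower in every CYT library. In IL-1βlow libraries it was 0.0432, 0.0405 and 0.0677 and in IL-1βlow + CYT libraries 0.0307, 0.0367 and 0.0716, where replicate 3 again stood with the untreated libraries. No length correction enters this ratio either, and it was not tested.

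Rows named as pseudogenes took many counts beside 2 of the members, and were singled out after their values were seen. Hspa8-ps25 and Hspa8-ps23 held 71.4% and 44.9% as many counts as Hspa8, and Hsp90aa1-ps16 and Hsp90aa1-ps17 held 78.5% and 56.4% as many as Hsp90aa1. Of the summed counts of each family, 44.8 to 47.6% were on the Hspa8 row and 39.5 to 44.6% on the Hsp90aa1 row. How reads that match several places were counted is not given in the sources used here, so the level of either gene alone is uncertain. The changes of the rows were close to those of the genes. CYT gave a log2 fold change of 0.59 for Hspa8-ps25 and 0.61 for Hspa8-ps23, and 0.59 for the summed family (adjusted p = 9.8e-06, quasi-likelihood test). It gave -0.73 for Hsp90aa1-ps16 (adjusted p = 0.012), -0.80 for Hsp90aa1-ps17 (adjusted p = 0.0076) and -0.78 for the summed family (adjusted p = 0.0089).

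**Figure D2:**
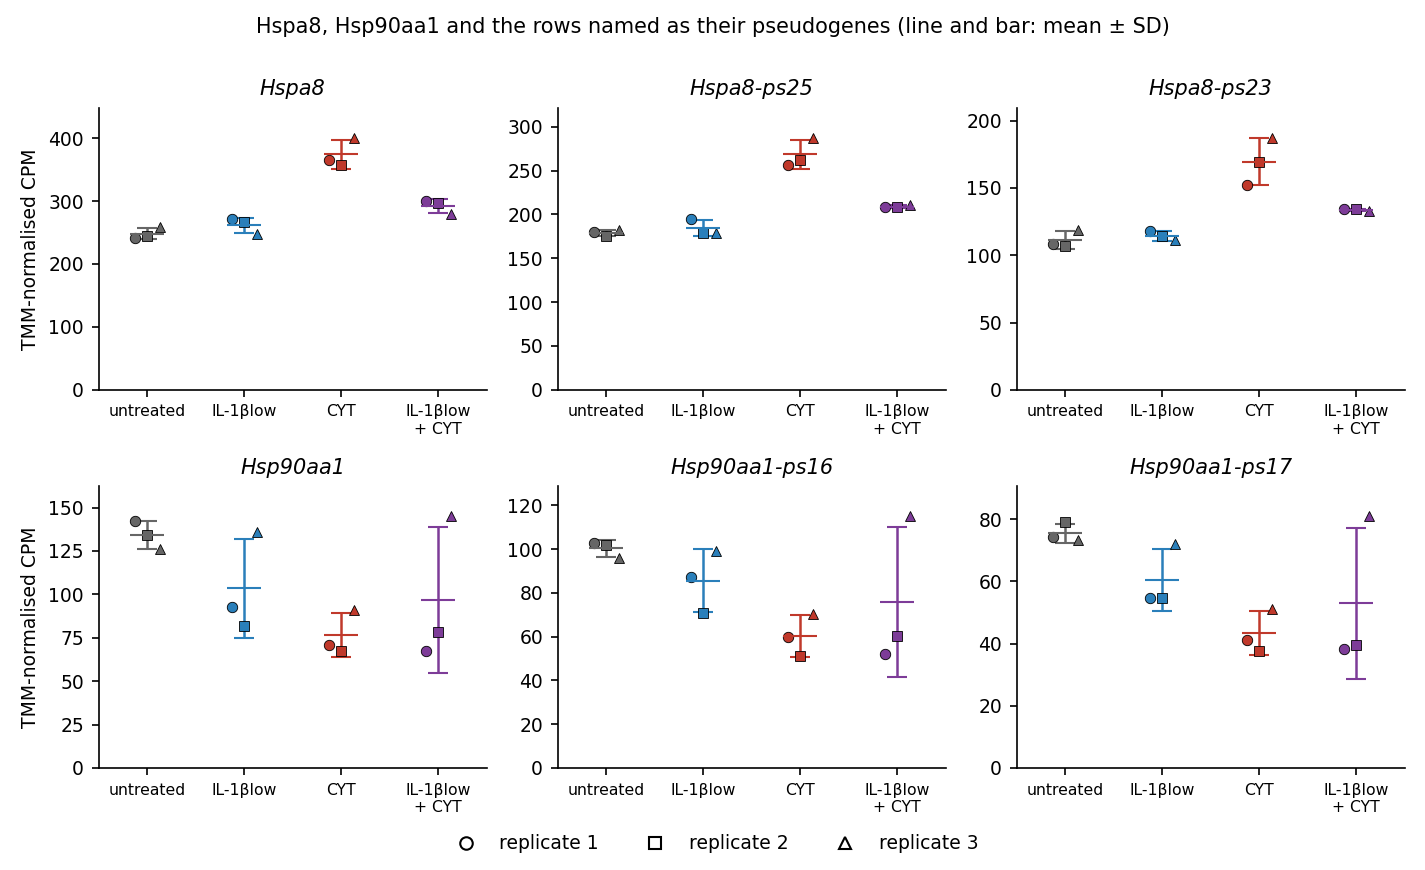
TMM-normalised CPM (linear axis from 0) of Hspa8, Hsp90aa1 and their named pseudogene rows in the 12 libraries, by group, with symbols for the replicate numbers and the mean ± SD of 3 libraries. The rows repeat the pattern of their gene, Hspa8 with CYT libraries above the rest and Hsp90aa1 with replicate 3 at 136 CPM in IL-1βlow and 145 CPM in IL-1βlow + CYT cells.

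Dnajb1, the J-domain partner that stimulates HSP70, varied little between groups. Untreated libraries held 45.8, 44.2 and 46.8 CPM, IL-1βlow libraries 48.4, 45.5 and 43.6 CPM, CYT libraries 43.5, 42.8 and 43.6 CPM, and IL-1βlow + CYT libraries 44.3, 48.1 and 39.9 CPM. CYT and untreated libraries did not overlap, but the log2 fold change of -0.07 did not pass (95% interval -0.26 to 0.11, adjusted p = 0.47, quasi-likelihood test). No other comparison gave more than 0.06 on the log2 scale in either direction.

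Bag3 joins HSP70 to selective autophagy and to the small heat shock proteins. It stood at 212, 250 and 240 CPM in untreated libraries and at 167, 162 and 137 CPM in CYT libraries, without overlap. IL-1βlow libraries held 189, 235 and 205 CPM and IL-1βlow + CYT libraries 161, 177 and 139 CPM, so the latter overlapped CYT and lay below every untreated and every IL-1βlow library. Bag3 fell by 33.6% with CYT, at a log2 fold change of -0.59 (adjusted p = 4.1e-04, quasi-likelihood test, standard error 0.11). It also fell in IL-1βlow + CYT against untreated cells, at a log2 fold change of -0.56 (adjusted p = 0.0022, standard error 0.11), and this call was narrowly lost, at a similar log2 fold change, without replicate 2 (-0.53, adjusted p = 0.011) or replicate 3 (-0.54, adjusted p = 0.012) of the untreated cells. IL-1βlow + CYT and CYT cells differed by 0.03 (95% interval -0.21 to 0.27, adjusted p = 0.83). Against IL-1βlow cells the difference of -0.40 missed the threshold (adjusted p = 0.031), but passed when the replicate number entered as a block (adjusted p = 0.0038). The interaction was 0.19 (adjusted p = 0.36). For each Bag3 count there were 1.06 ± 0.0799 Hspa8 counts (SD, n = 3) in untreated, 1.26 ± 0.157 in IL-1βlow, 2.43 ± 0.416 in CYT and 1.85 ± 0.169 in IL-1βlow + CYT cells, a shift that was not tested.

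Hspb1, the small heat shock protein HSP27, was nearly without counts in this line. It had 2 counts in all 12 libraries together, 1 in IL-1βlow replicate 2 and 1 in CYT replicate 1, and was not tested. A count of 0 allows up to 3 counts, which is 0.149 to 0.185 CPM at these depths and covers counting error only. Its relatives Hspb2, Hspb3, Hspb8 and Cryaa had 0 counts, Cryab 2 and Hspb7 8 in all libraries together.

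**Figure D3:**
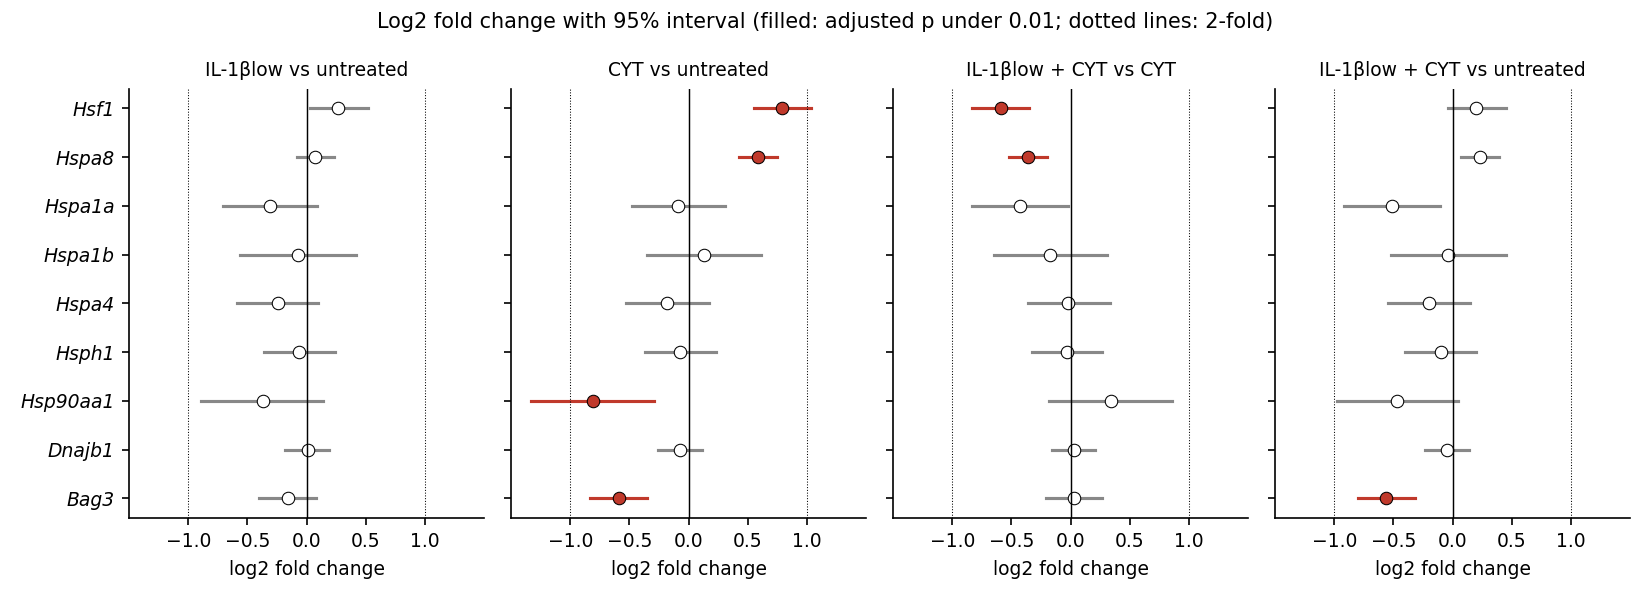
Log2 fold change of the 9 tested members in 4 comparisons, with 95% intervals, a solid line at no change and dotted lines at a 2-fold change in either direction. Filled points passed an adjusted p of 0.01 in the quasi-likelihood test, and none of them lies beyond the dotted lines.

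Low-dose IL-1β alone passed the test for 0 of 9 members, where 0.503% of all genes passed. The quasi-likelihood test gave 1 member, Hsf1, an unadjusted p under 0.05, and exactTest and DESeq2 also called 0. Member log2 fold changes ran from -0.37 to 0.27. Hsf1 was the 1 member whose IL-1βlow and untreated libraries did not overlap, as was the case for 23.7% of all genes. Without replicate 3 of every group 2 members passed, Hspa4 and Hsp90aa1, both lower, and the share of all genes was 5.83% in that fit. That setting was chosen because these genes stood apart in replicate 3, so the 2 calls are no separate evidence.

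Between IL-1βlow + CYT and CYT cells 2 of 9 members passed, Hsf1 and Hspa8, both lower, where 36.3% of all genes passed, 17.1% higher and 19.2% lower. These 2 were also the members whose libraries did not overlap, against 54.4% of all genes. The median absolute log2 fold change was 0.17 for the members and 0.39 for all genes, and 12.5% of all genes but no member reached a 2-fold change. Against untreated cells, IL-1βlow + CYT cells differed in 1 member, Bag3, which was lower. Of all genes 13.8% passed here, 8.24% higher and 5.53% lower, and 5.99% also reached a 2-fold change, as no member did. The libraries of these groups did not overlap for 3 members, Bag3, Hspa8 and Hspa1a, and for 37.3% of all genes. Against IL-1βlow cells they differed in 0 of 9 members, where 8.2% of all genes passed. The unadjusted p was under 0.05 for 1 member, Bag3, in the quasi-likelihood test. Bag3 was called by exactTest, with the replicate block and with no filter, and not by DESeq2. Bag3 and Hspa8 libraries did not overlap here, and neither did those of 27.1% of all genes. The comparisons with CYT and with untreated cells share libraries with those above, so their values are set side by side and were not counted as separate evidence.

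Over the 12 libraries Pearson's r of log2 CPM was 0.87 between Hspa8 and Hsf1, -0.75 between Hspa8 and Bag3 and -0.74 between Hsp90aa1 and Hsf1, but 0.45 between the copies Hspa1a and Hspa1b. It was 0.81 between Hspa4 and Hsp90aa1, which were both highest in replicate 3 of each treated group. These describe libraries that share their groups and depth. Most like Hspa8 among all tested genes were Stx6, Atg2a and Edc3, with r of 0.983, 0.982 and 0.982, and most like Hsf1 were RGD1560124, Rhov and Nosip (0.974, 0.974 and 0.972). Stx6, a SNARE of the trans-Golgi network, went from 30.7 ± 2.14 CPM (SD, n = 3) in untreated to 89.2 ± 13.5 in CYT and 50.2 ± 1.19 CPM in IL-1βlow + CYT cells. Most like Hsp90aa1 were Ranbp2, Taf1 and Taok1 (0.986, 0.979 and 0.978). Ranbp2, a nucleoporin, also varied most in IL-1βlow + CYT cells, at 92.5 ± 32.9 CPM against 132 ± 12.6 CPM in untreated cells. Most like Bag3 were Stk32c, Surf4 and Cdk16 (0.973, 0.968 and 0.965).

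The remaining chaperone genes were taken from lists that were also written with earlier results of these data known. No gene of these lists passed in IL-1βlow against untreated cells, where 0.503% of all genes did. The list of other HSP70 genes leaves out Hspa9 and Hspa5, which are in the mitochondrial and endoplasmic reticulum lists below. Of its 6 tested genes 4 fell with CYT and 0 rose, where 24.5% of all genes were lower and 25.2% higher. The median log2 fold change of this list was -0.83, where the median of all genes was -0.04. Hspa12a went from 26.0 ± 0.951 to 12.8 ± 2.37 CPM (SD, n = 3) and Hspa13 from 44.9 ± 6.58 to 19.3 ± 2.54 CPM. Hspa12b, also among the 4, lay near the filter, at 1.95 ± 0.37 CPM in untreated and 0.72 ± 0.323 CPM in CYT cells. Hspa13, a microsomal HSP70, was also lower in IL-1βlow + CYT than in untreated cells (log2 fold change -0.94, adjusted p = 0.003, quasi-likelihood test). The HSP40 list had 3 of 12 genes lower with CYT and 0 higher, a share of lower genes near that of all genes. Its Dnajb4, a close relative of Dnajb1, fell with CYT from 12.2 ± 1.55 to 6.69 ± 1.38 CPM. Primed and challenged cells held 12.4 ± 1.67 CPM of it, 0.89 above CYT cells on the log2 scale (adjusted p = 5.9e-04). Hspb6, the 1 small heat shock gene of 7 that was tested, fell with CYT from 44.6 ± 4.66 to 21.3 ± 2.66 CPM (log2 fold change -1.07, adjusted p = 2.5e-06).

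The factors that bind Hsf1, HSP90 or HSP70 moved in both directions. Hsbp1, which binds and restrains Hsf1, went from 93.0 ± 4.10 CPM (SD, n = 3) in untreated to 59.3 ± 5.85 in CYT and 105 ± 5.35 CPM in IL-1βlow + CYT cells. This is the reverse of Hsf1, with log2 fold changes of -0.65 with CYT (adjusted p = 1.4e-05, quasi-likelihood test) and 0.82 in IL-1βlow + CYT against CYT cells (adjusted p = 3.1e-06), and an interaction of 0.72 (adjusted p = 4.1e-04). Hsf2 did not pass in any comparison. A list of 21 genes held Hsp90ab1 and co-chaperones of HSP90 or HSP70, the Bag genes, Hspbp1 and St13 being of the HSP70 kind. Of the 21, 6 rose with CYT, Hsp90ab1 among them, and 3 fell, with a median of 0.14. Of all genes 25.2% were higher and 24.5% lower. Fkbp5, an HSP90 immunophilin, had a log2 fold change of 0.78. Bag5, a relative of Bag3, had one of 0.69 and Cdc37, which brings kinases to HSP90, one of 0.63. Ahsa2, a relative of the HSP90 ATPase activator, dropped with CYT from 54.3 ± 1.24 to 20.5 ± 2.89 CPM, against 51.9 ± 5.67 CPM in IL-1βlow + CYT cells. It overlaps Usp34 in the GRCr8 annotation, and the strand setting of the counting is not given in the sources used here. In IL-1βlow + CYT against CYT cells 3 of the 21 were higher and 3 lower, near the 17.1% and 19.2% of all genes, and against untreated cells 0 passed, where 13.8% of all genes did.

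Most of the mitochondrial and endoplasmic reticulum chaperones passed with CYT, each list in 1 direction, where 49.7% of all genes passed, 25.2% higher and 24.5% lower. Of 6 mitochondrial chaperones 4 rose with CYT and 0 fell, and in IL-1βlow + CYT against CYT cells 3 were lower, as were 19.2% of all genes. Hspa9, the mitochondrial HSP70, went from 238 ± 23.0 CPM (SD, n = 3) in untreated to 536 ± 63.8 in CYT and 243 ± 47.7 CPM in IL-1βlow + CYT cells, log2 changes of 1.17 (adjusted p = 3.4e-06) and -1.14 (adjusted p = 8.6e-06, quasi-likelihood test). It overlaps 2 snoRNA genes in the GRCr8 annotation. Of 13 chaperonin and prefoldin genes 5 rose with CYT and 0 fell. Cct4, a subunit of the cytosolic TRiC chaperonin, went from 302 ± 19.2 to 550 ± 67.9 CPM with CYT and was 341 ± 17.9 CPM in IL-1βlow + CYT cells. Of 11 chaperones of the endoplasmic reticulum 8 fell with CYT and 0 rose, with a median of -0.66, and 8 were also lower in IL-1βlow + CYT than in untreated cells, as were 5.53% of all genes, with a median of -0.70. Hsp90b1, the HSP90 of that compartment, fell with CYT from 1030 ± 116 to 463 ± 15.6 CPM, with 535 ± 79.0 CPM in IL-1βlow + CYT cells. Whether the lists differ from each other or from the members was not tested.

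**Figure D4:**
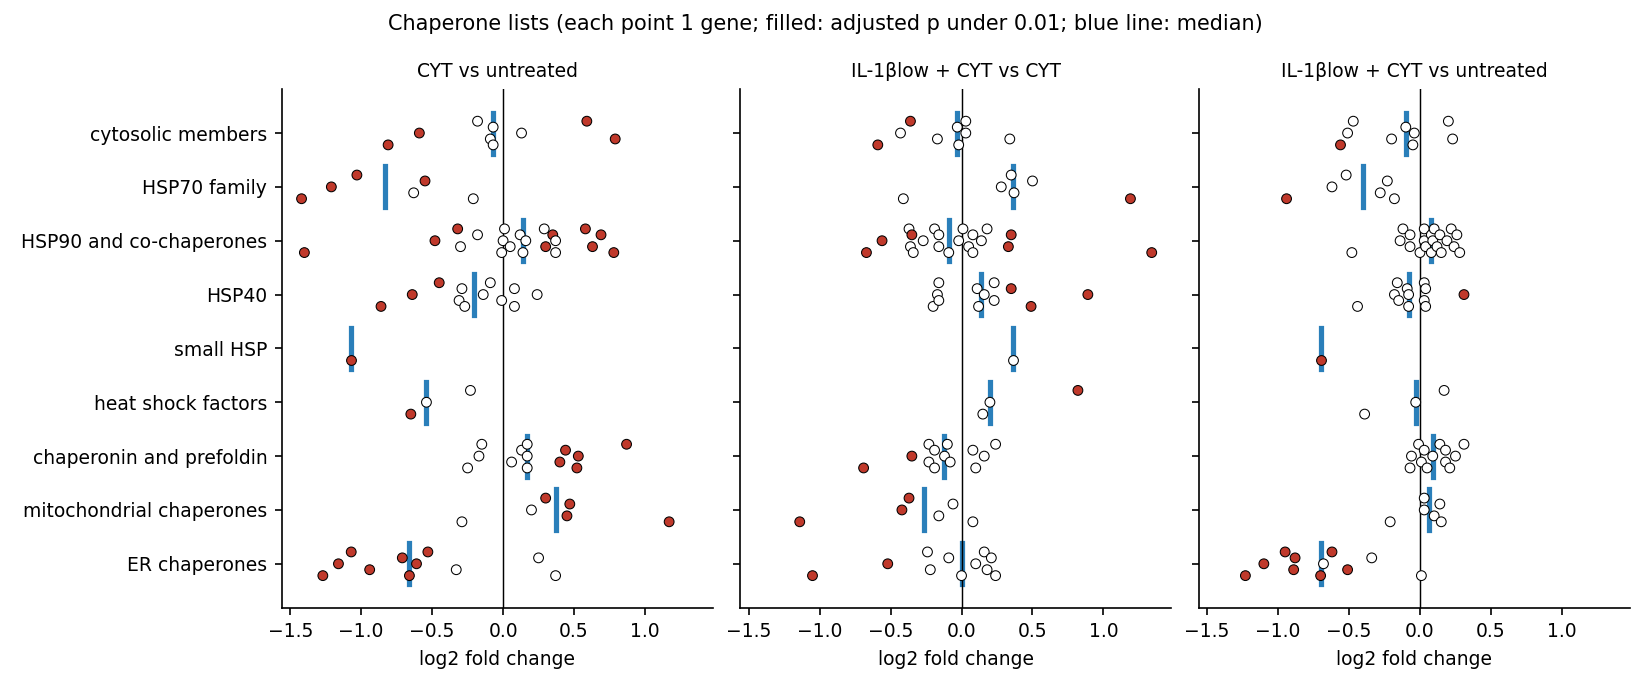
Log2 fold changes of every tested gene of the cytosolic members and of 8 chaperone lists in 3 comparisons, with 1 point a gene, filled where the adjusted p was under 0.01 in the quasi-likelihood test, and a blue line at each list's median. With CYT the median was -0.07 for the members, -0.66 for chaperones of the endoplasmic reticulum and 0.38 for mitochondrial chaperones.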

How the data were processed

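Bulk RNA-seq of 12 INS-1E libraries was analysed. From polyadenylated RNA the authors made TruSeq libraries. FastQC was used to check the reads, rfastp to trim them, Rsubread to align them to mRatBN7.2, and featureCounts to count genes. What they deposited are raw counts, whole numbers for each symbol and library, and 0 columns were left unused. Total counts per library were 15812640 to 20246806, and floors from them cover counting error only. The intervals given with fold changes come from edgeR's quasi-likelihood fit and also cover the spread between these libraries.

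The tools were edgeR 4.0.16, limma 3.58.1 and DESeq2 1.42.0 under R 4.3.3. Low genes were removed by the study's filter (CPM over 1 in 2 libraries or more), TMM factors computed, and all 12 libraries fitted together by edgeR's quasi-likelihood test (8 residual degrees of freedom), with Benjamini-Hochberg adjustment over the 14324 genes tested. A gene passed with an adjusted p under 0.01, the study's threshold. The study's minimum, an absolute log2 fold change of 0.6 for IL-1βlow against untreated cells and 1 elsewhere, was counted beside it. The study used exactTest. Within a group, counts of any 2 libraries gave a chi-square per degree of freedom of 7.2 to 27.8, more than counting noise, so none was a second deposit of the same library.

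Alternatives were RLE size factors, DESeq2, exactTest, fits of the 2 groups compared, no filter, at least 10 counts in every library, the replicate number as a block, an adjusted p under 0.05, the fold minimum, Hspa1a and Hspa1b summed, and leaving out each library. Adding pseudogene rows, leaving out Rn45s and leaving out replicate 3 of every group were chosen after seeing the data. Replicate numbers come from the labels. Deviations from the group mean correlated between same-numbered libraries of all pairs of treated groups, with r from 0.116 to 0.52. It was 0.411 to 0.52 for replicates 2 and 3, but only 0.116 to 0.179 for replicate 1. IL-1βlow + CYT replicate 1 reached 0.192 with CYT replicate 2. A pairing of the treated groups by number is thus not shown for replicate 1. Between untreated and same-numbered treated libraries r ran from -0.188 to 0.181.

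The members and lists were chosen with earlier results of these data known. Named beside the members are, for each list, up to 4 genes with the smallest adjusted p in CYT against untreated cells and up to 2 in IL-1βlow + CYT against CYT cells, and up to 3 genes most like each member that passed with CYT. Not all of them are given here. Scripts were tested on simulated counts for CYT against untreated cells (13887 genes), where 6 of 66 genes changed by a log2 fold change of 0.5, 41 of 64 changed by 1, 53 of 62 changed by 1.5 and 1 unchanged gene passed.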

Additional observations from a re-analysis of the deposited data

Results flagged for a closer look

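For 2 members the effect of the cytotoxic mixture differed between primed and unprimed cells by a test of the difference itself, the interaction in edgeR's quasi-likelihood fit. Hsf1 had an interaction of -0.86 (standard error 0.16, adjusted p = 9.4e-04), since CYT came with 74.8 ± 8.23 CPM against 43.2 ± 4.37 CPM (SD, n = 3) without priming and with 49.7 ± 4.96 CPM against 52.2 ± 5.31 CPM after it. Hspa8 had an interaction of -0.43 (standard error 0.11, adjusted p = 0.0056), with 374 ± 22.9 CPM against 249 ± 8.49 CPM without priming and 292 ± 11.0 CPM against 262 ± 12.3 CPM after it. Across all genes tested 22.6% passed the same test. Among fits that each left out 1 library, the Hsf1 call was kept in all and the Hspa8 call was lost in some. Where it was lost, the Hspa8 interaction was -0.46 to -0.40 (adjusted p up to 0.013, quasi-likelihood test).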

How the results depend on the processing

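The calls of Hsf1 and of Hspa8 and Bag3 in CYT against untreated cells kept their direction and their side of the threshold in every alternative tried except the fold minimum, which left 0 members in CYT against untreated cells, in IL-1βlow + CYT against CYT or untreated cells and in the interaction. In IL-1βlow + CYT against IL-1βlow cells 0 members passed, and 1 (Bag3) did with exactTest, with no filter, with the replicate block and at an adjusted p under 0.05. The replicate block changed no other call of a member. In IL-1βlow + CYT against CYT cells the count fell from 2 to 1 in the fit of those 2 groups, where Hspa8 had an adjusted p of 0.012, and without replicate 3 of every group. Against untreated cells, 2 members differed in IL-1βlow + CYT cells with no filter and at an adjusted p under 0.05. Without replicate 3 of every group 2 members passed in IL-1βlow cells and 4 (Hspa8, Hspa4, Hsp90aa1 and Bag3) in IL-1βlow + CYT cells against untreated cells, where 5.83% and 22.3% of all genes passed, and Hspa1b turned to -0.16 in CYT and 0.25 in the interaction and to 0.05 in IL-1βlow + CYT against CYT cells, where Hsph1 turned to 0.10, while Dnajb1 turned to 0.04 in IL-1βlow + CYT against untreated cells. Leaving out single libraries, the count was 3 in each of the 6 fits of CYT against untreated cells, where Hsp90aa1 was lost, 0 to 2 in IL-1βlow + CYT against untreated cells and 1 to 2 in the interaction. In the interaction 3 members passed with no filter and without replicate 3 of every group, where Hsp90aa1 was added. With at least 10 counts in every library Hsp90aa1 did not pass in CYT against untreated cells (adjusted p = 0.012). In IL-1βlow + CYT against untreated cells the count was 0 without untreated replicate 2 or 3, and 2 without IL-1βlow + CYT replicate 3, where Hsp90aa1 passed too, at -0.88 (adjusted p = 0.0019). The cause of these shifts was not tested.

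All log2 fold changes that changed sign were of members that had not passed in that comparison. With RLE size factors and with DESeq2 the interaction became 0 for Hsph1 and -0.01 for Dnajb1. Without a filter Hsph1 became 0 in CYT against untreated cells and -0.02 in the interaction, Dnajb1 0 in IL-1βlow + CYT against CYT cells and -0.03 in the interaction, and Hspa1b 0.01 in IL-1βlow + CYT against untreated cells. Over single libraries left out, IL-1βlow against untreated cells ran from -0.24 to 0.09 for Hspa1b, -0.16 to 0.05 for Hsph1 and -0.04 to 0.04 for Dnajb1. CYT against untreated cells ran from -0.04 to 0.31 for Hspa1b and -0.20 to 0.03 for Hsph1. IL-1βlow + CYT against untreated cells ran from -0.21 to 0.11 for Hspa1b and -0.12 to 0.02 for Dnajb1. IL-1βlow + CYT against CYT cells ran from -0.22 to 0.10 for Hspa4, -0.13 to 0.11 for Hsph1, -0.07 to 0.51 for Hsp90aa1, -0.04 to 0.10 for Dnajb1 and -0.08 to 0.12 for Bag3. Against IL-1βlow cells they ran from -0.06 to 0.13 for Hspa1b, -0.16 to 0.21 for Hspa4, -0.16 to 0.04 for Hsph1, -0.51 to 0.15 for Hsp90aa1 and -0.12 to 0.01 for Dnajb1. The interaction ran from -0.34 to 0.03 for Hspa1a, -0.29 to 0.08 for Hspa1b, -0.11 to 0.17 for Hsph1 and -0.05 to 0.09 for Dnajb1. In simulated counts 9.09% of genes changed by a log2 fold change of 0.5 and 64.1% of those changed by 1 passed. Few genes were changed there, so the adjusted threshold was stricter than in CYT against untreated cells, where 7116 genes passed and 3096 of them also reached a 2-fold change.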
